A study of Mus musculus with 24 samples.

Results

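Cytotoxic granule genes were followed through pregnancy in RNA-seq of the mouse maternal-fetal interface (MFI). The set holds 10 genes chosen by name from the 55401 genes in the count table: perforin (Prf1), the granzymes Gzma, Gzmb, Gzmc, Gzmd, Gzme, Gzmf and Gzmg, serglycin (Srgn), and Fcrl6. All 10 were among the 19299 genes that passed the expression filter over the 24 libraries. The libraries came from MFI tissue of C57BL/6 mice, either wild type (WT) or homozygous for a CRISPR/Cas9 deletion in C1qtnf6 (KO), collected on the gestation days (gd) gd10.5 and gd14.5 and, later in pregnancy, gd16.5 and gd19.5. Each of the 8 groups of genotype and stage had 3 libraries, and the KO mice were a single line. C1qtnf6 encodes the secreted protein CTRP6, which trophoblast cells produce. The labels do not say which libraries share a litter or dam, so the p-values below measure the spread between these libraries.

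Granzymes are serine proteases that natural killer (NK) cells and cytotoxic T cells store in secretory granules. Perforin makes pores through which granzymes enter a target cell, and serglycin is the proteoglycan core on which granule proteins are packed. Uterine NK cells of the decidua are rich in granules, are most numerous around mid-gestation in the mouse and become scarce towards term. Gzmc to Gzmg belong to a rodent-specific expansion of the granzyme B gene cluster. Fcrl6 is an Fc receptor-like surface protein of cytotoxic lymphocytes.

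The 6 genes Gzmb to Gzmg lie in 1 cluster on chromosome 14 of GRCm38, from the end of Gzme at chr14:56117626 to the start of Gzmb at chr14:56262260, all on the minus strand. Gzma lies on chromosome 13, Prf1 and Srgn on chromosome 10 and Fcrl6 on chromosome 1. The 150 bases before the start of the first RefSeq promoter (GRCm38.p6), written 5′ to 3′ on the strand of the gene, are shown for 7 members, because they show which of the genes that declined together are also alike in sequence. Capitals mark matches, on either strand, to the Runx motif TGTGGT, which reads as ACCACA on the other strand, and, in Gzmb, also to the T-box motif TCACAC and the AP-1 motif TGANTCA.
Prf1 (chr10:61297686-61297835, plus strand): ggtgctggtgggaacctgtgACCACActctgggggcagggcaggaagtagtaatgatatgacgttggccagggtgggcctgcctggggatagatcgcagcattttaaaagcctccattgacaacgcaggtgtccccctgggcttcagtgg
Gzma (chr13:113100982-113101131, minus strand): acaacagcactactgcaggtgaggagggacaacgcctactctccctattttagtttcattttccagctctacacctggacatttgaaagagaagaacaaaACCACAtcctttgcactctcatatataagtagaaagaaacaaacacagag
Gzmb (chr14:56262335-56262484, minus strand): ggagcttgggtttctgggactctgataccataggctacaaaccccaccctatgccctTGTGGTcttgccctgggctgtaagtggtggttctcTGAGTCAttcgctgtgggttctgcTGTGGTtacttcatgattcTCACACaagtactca
Gzmc (chr14:56234658-56234807, minus strand): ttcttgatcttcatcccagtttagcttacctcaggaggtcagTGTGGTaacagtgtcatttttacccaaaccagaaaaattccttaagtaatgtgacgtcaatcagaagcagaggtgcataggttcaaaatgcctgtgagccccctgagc
Gzmd (chr14:56132594-56132743, minus strand): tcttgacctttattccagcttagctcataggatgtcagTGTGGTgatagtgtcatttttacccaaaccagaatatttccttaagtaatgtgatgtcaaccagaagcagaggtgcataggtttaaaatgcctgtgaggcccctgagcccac
Gzmg (chr14:56159580-56159729, minus strand): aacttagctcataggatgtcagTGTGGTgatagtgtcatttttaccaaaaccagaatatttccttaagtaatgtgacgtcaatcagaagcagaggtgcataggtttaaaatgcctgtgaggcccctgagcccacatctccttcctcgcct
Fcrl6 (chr1:172602552-172602701, minus strand): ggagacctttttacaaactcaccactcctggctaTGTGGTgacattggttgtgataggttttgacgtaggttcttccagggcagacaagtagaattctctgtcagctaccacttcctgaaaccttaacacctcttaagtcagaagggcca

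The Gzmc, Gzmd and Gzmg promoters shared most of these letters. Identity was 85.3% between Gzmc and Gzmd, 88.0% between Gzmf and Gzmg and 94.7% between Gzmd and Gzme. The promoters of Gzma, Gzmb, Prf1, Srgn and Fcrl6 were 38.7% to 49.3% identical to any other member. In the whole promoter window of 300 bases, a Runx match was present in the first promoter of 9 of the 10 members, Srgn being the exception, and in 16.8% of 32851 promoters. Gzmc to Gzmg each had ACCACA between -195 and -174 and TGTGGT between -133 and -108 from the start. Their promoters are alike in sequence, so these members do not count as independent. T-box, AP-1 and STAT (TTCNNNGAA) matches were each present in 1 member, Gzmb, and in 4760, 2565 and 2726 of the 32851 promoters. These matches describe letters, and factor binding was not measured. For Prf1, Gzmb, Gzmc, Gzmd, Gzmf and Srgn the RefSeq start was not the same base as the start of the gene model used for counting.

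Total counts per library ran from 20975717 to 37383108, and 3 counts, taken here as the floor of detection, were worth 0.0773 to 0.149 CPM (counts scaled to library size). C1qtnf6 was at 64.7 to 168 CPM in WT libraries and at 0.0341 to 2.05 CPM in KO libraries. One library stood apart from its group: over the 19289 tested genes that are not members, KO gd10.5 replicate 2 lay 50.2% of the way from the mean gd10.5 profile to the mean gd14.5 profile, and the other 5 gd10.5 libraries lay between -20.7% and 9.92%. Its summed trophoblast markers were at 17410 CPM, against 4673 to 8244 CPM in the other 5, and its summed Y-linked genes were at 71.1 CPM, against at most 0.312 CPM. KO gd14.5 replicate 3 was the lowest of the 6 gd14.5 libraries for 9 of the 10 members. The counts of KO calls, the step differences, the comparisons of genotypes at gd10.5 and gd14.5, the sums, the ratios and the coupling are therefore also given without these 2 libraries. The second was singled out for its low values of these genes, so that tests without it are descriptions.

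Perforin fell at every stage in WT mice. Prf1 was at 389, 567 and 375 CPM in the 3 WT libraries of gd10.5, at 82.1, 61.5 and 99.3 CPM at gd14.5, at 20.2, 29.3 and 36.8 CPM at gd16.5, and at 12.8, 9.38 and 9.55 CPM at gd19.5. No WT library of 1 stage overlapped those of the next. In the edgeR quasi-likelihood fit of all 24 libraries (Benjamini-Hochberg adjustment over all genes), Prf1 fell by 2.46 on the log2 scale from gd10.5 to gd14.5 (SE 0.36, adjusted p = 1.63e-05), by 1.49 from gd14.5 to gd16.5 (SE 0.36, adjusted p = 0.00649) and by 1.44 from gd16.5 to gd19.5 (SE 0.37, adjusted p = 0.0343).

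In KO mice Prf1 fell in the first 2 steps and not in the third. Prf1 was at 556, 223 and 484 CPM at gd10.5, at 113, 87.6 and 40.7 CPM at gd14.5, at 7.67, 5.86 and 10.49 CPM at gd16.5, and at 9.53, 4.98 and 7.56 CPM at gd19.5. The KO libraries of gd16.5 and gd19.5 overlapped. The log2 fold change was -2.39 in the first step (SE 0.36, adjusted p = 2.57e-05) and -3.34 in the second (SE 0.39, adjusted p = 8.5e-06), and the third step gave -0.12 (SE 0.40, adjusted p = 0.896).

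**Figure D1:**
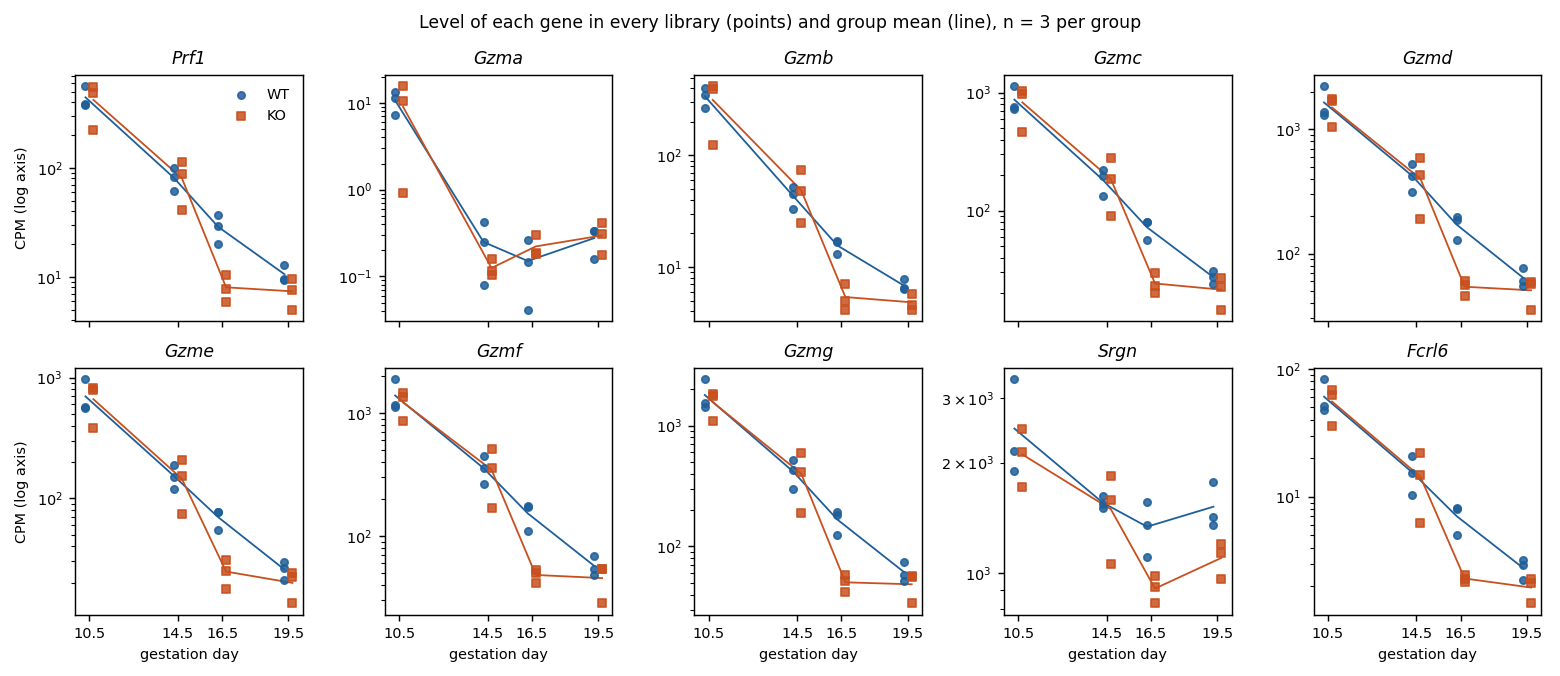
Level of each of the 10 genes (CPM, log axis) against gestation day; circles are WT libraries, squares are KO libraries, and lines join the group means of 3 libraries. Prf1, Gzmb to Gzmg and Fcrl6 fall together, Gzma drops to a few counts by gd14.5, Srgn never falls below 828 CPM, and KO libraries lie below WT libraries at gd16.5 in every panel but that of Gzma.

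Gzmb, the granzyme best known for cleaving caspases, fell further than perforin in the first step. It was at 351, 407 and 266 CPM in WT at gd10.5 and at 44.99, 32.8 and 52.0 CPM at gd14.5. This step had a log2 fold change of -2.98 (SE 0.38, adjusted p = 3.61e-06). WT levels then reached 13.1, 17.1 and 16.6 CPM at gd16.5 and 7.73, 6.42 and 6.30 CPM at gd19.5. The second WT step passed the test (log2 fold change -1.47, SE 0.38, adjusted p = 0.00983) and the third, -1.19, did not (SE 0.40, adjusted p = 0.0923), although no gd19.5 library overlapped a gd16.5 library. KO libraries were at 398, 125 and 422 CPM at gd10.5, at 74.2, 47.5 and 24.5 CPM at gd14.5, at 4.13, 4.90 and 7.07 CPM at gd16.5 and at 5.73, 4.13 and 4.60 CPM at gd19.5. The last 2 KO groups overlapped.

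Gzma, a tryptase-like granzyme of NK and T cells, fell to a few counts by gd14.5. It was at 11.4, 13.5 and 7.28 CPM in WT at gd10.5 and at 15.7, 0.914 and 10.4 CPM in KO. From gd14.5 on no library exceeded 0.421 CPM, which is 1 to 12 counts per library, against 172 to 498 counts in the WT libraries of gd10.5. The log2 fold change of the first step was -5.51 in WT (SE 0.73, adjusted p = 5.27e-06) and -6.13 in KO (SE 0.79, adjusted p = 4.67e-06). Later differences of Gzma were not detectable at this depth. The gd10.5 level of Gzma also differed most between libraries, with 24 counts in KO gd10.5 replicate 2.

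Gzmg, Gzmd and Gzmf, of the granzyme cluster, were the most abundant transcripts of the set per length. At gd10.5 in WT, per kilobase of exon, Gzmg was at 1971 ± 597 CPM (SD, n = 3), Gzmd at 1712 ± 541, Gzmf at 1510 ± 465, Gzmc at 974 ± 264 and Gzme at 762 ± 255. On the same scale Srgn was at 1127 ± 358 CPM, Gzmb at 238 ± 49.5, Prf1 at 172 ± 41.4, Fcrl6 at 22.6 ± 7.23 and Gzma at 10.6 ± 3.12. Sorted by level, adjacent genes differed by less than the sum of their SDs, except Gzme and Gzmb, Prf1 and Fcrl6, and Fcrl6 and Gzma. These SDs are between libraries, and within each WT library of gd10.5 the order of the genes was the same.

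Gzmg, the highest of them, was at 1434, 2416 and 1526 CPM in WT at gd10.5, at 430, 300.1 and 519 CPM at gd14.5, at 125, 182 and 194 CPM at gd16.5 and at 75.1, 51.7 and 58.1 CPM at gd19.5. None of these WT stages overlapped. In KO it was at 1834, 1090 and 1766 CPM at gd10.5, at 596, 416 and 190.1 CPM at gd14.5, at 51.9, 41.8 and 58.0 CPM at gd16.5 and at 56.5, 33.9 and 55.7 CPM at gd19.5. KO fell in the first 2 steps, by 1.96 (SE 0.34, adjusted p = 9.71e-05) and by 2.99 on the log2 scale (SE 0.36, adjusted p = 9.48e-06), and the last 2 KO stages overlapped.

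Gzmd ran almost in parallel to Gzmg. Its 3 WT libraries were at 1313, 2251 and 1387 CPM at gd10.5 and at 76.7, 54.4 and 60.6 CPM at gd19.5. Gzmc fell in WT from 722 to 1143 CPM at gd10.5 to between 23.8 and 30.7 CPM at gd19.5, Gzme from 561 to 968 CPM to between 20.8 and 29.4 CPM, and Gzmf from 1116 to 1880 CPM to between 48.6 and 68.9 CPM. Reads of these paralogs may be split between genes. Their transcripts were up to 90.5% identical (Gzmd and Gzme), and 21.9% of the 50-base windows of Gzmd, 20.6% of Gzme, 19.8% of Gzmg, 7.36% of Gzmf and 4.14% of Gzmc also occurred in another gene. For windows of 100 bases the shares were at most 0.247%, and Gzma, Gzmb, Prf1 and Srgn shared no 50-base window.

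Serglycin kept more of its level than any other member. Srgn was at 2157, 3371 and 1898 CPM in WT at gd10.5, at 1507, 1538 and 1620 CPM at gd14.5, at 1104, 1350 and 1560 CPM at gd16.5 and at 1422, 1352 and 1776 CPM at gd19.5. The WT level at gd19.5 was thus 61.3% of that at gd10.5. Only the first WT step passed the p threshold, with a log2 fold change of -0.67 (SE 0.21, adjusted p = 0.0117) that did not reach the fold threshold used for a call, a change of more than 1 on the log2 scale. In KO, Srgn was at 2131, 1713 and 2469 CPM at gd10.5, at 1834, 1586 and 1061 CPM at gd14.5, at 981, 915 and 828 CPM at gd16.5 and at 1132, 967 and 1203 CPM at gd19.5. Its KO change was -0.49 in the first step (adjusted p = 0.0572) and -0.72 in the second (adjusted p = 0.019). Srgn is expressed in many blood cells and is not limited to NK cells.

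Fcrl6, the receptor of the set, moved with the effectors at a much lower level. It was at 47.8, 82.7 and 50.9 CPM in WT at gd10.5, at 15.2, 10.3 and 20.8 CPM at gd14.5, at 5.00, 8.09 and 8.03 CPM at gd16.5 and at 2.91, 2.24 and 3.17 CPM at gd19.5. KO libraries were at 62.8, 35.7 and 67.9 CPM, then at 22.0, 14.7 and 6.24 CPM, at 2.44, 2.16 and 2.28 CPM and at 2.10, 1.47 and 2.28 CPM. The first 2 steps passed the test in both genotypes, and the third had an adjusted p of 0.0578 in WT and of 0.809 in KO.

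Summed over the 7 granzymes and Prf1, the gd10.5 libraries held 7194 ± 2123 CPM of effector transcript when WT (SD, n = 3) and 6516 ± 2035 CPM when KO. The sums were 1653 ± 412 and 1607 ± 796 CPM at gd14.5, 677 ± 147 and 215 ± 35.9 CPM at gd16.5, and 253 ± 43.9 and 198 ± 55.6 CPM at gd19.5, WT before KO. The KO libraries of gd16.5, at 178 to 249.5 CPM, lay in the range of the WT libraries of gd19.5 or below it, at 215 to 301 CPM. Without the 2 libraries named above, the KO sums were 7689 CPM at gd10.5 and 2021 CPM at gd14.5 (mean of 2 libraries each). In bulk tissue, fewer cells of a type and less RNA per cell cannot be told apart.

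Members were called lower when the adjusted p was under 0.05 and the log2 fold change under -1. From gd10.5 to gd14.5, 9 of 10 members were called lower in WT, against 11.9% of all genes, and 9 of 10 in KO, against 11.0%. From gd14.5 to gd16.5, 8 of 10 were called lower in both, against 2.32% of genes in WT and 3.25% in KO. From gd16.5 to gd19.5, 6 of 10 were called lower in WT, against 0.570%, and 0 of 10 in KO, against 1.45%. No KO member had an unadjusted p under 0.05 in that last step, and DESeq2 called 0 as well. The median log2 fold change of the members over the 3 steps was -2.15, -1.26 and -1.41 in WT and -2.06, -2.87 and -0.11 in KO, where the median of all genes in WT was -0.02, -0.02 and -0.01. Without the 2 KO libraries named above, the KO counts were 9, 8 and 0, and the log2 fold changes of Prf1 were -2.40, -3.64 and -0.13. The WT counts of the later steps leaned on single libraries: 2 members were called from gd14.5 to gd16.5 without WT gd14.5 replicate 3 or without WT gd16.5 replicate 1. From gd16.5 to gd19.5, 2 were called without WT gd16.5 replicate 2, 3 without WT gd19.5 replicate 1, and 0 without WT gd16.5 replicate 3, WT gd19.5 replicate 2 or WT gd19.5 replicate 3.

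Divided by the days of each step, the WT rates of Prf1, Gzmb and Gzmg lay between -0.75 and -0.40 per day on the log2 scale. Prf1 changed by -0.61 ± 0.09 per day (SE) from gd10.5 to gd14.5, by -0.75 ± 0.18 from gd14.5 to gd16.5 and by -0.48 ± 0.12 from gd16.5 to gd19.5. For Gzmb the 3 WT rates were -0.75 ± 0.09, -0.74 ± 0.19 and -0.40 ± 0.13 per day, and for Gzmg -0.53 ± 0.09, -0.66 ± 0.17 and -0.48 ± 0.11. In KO, Prf1 changed by -0.60 ± 0.09 per day, then by -1.67 ± 0.20, then by -0.04 ± 0.13. Over the middle step, the 8 members other than Gzma and Srgn had KO rates from -1.67 (Prf1) to -1.28 (Gzme) per day, and WT rates from -0.75 (Prf1) to -0.56 (Fcrl6). Gzma was the fastest of all in the first step, at -1.38 ± 0.18 per day in WT and -1.53 ± 0.20 in KO.

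**Figure D2:**
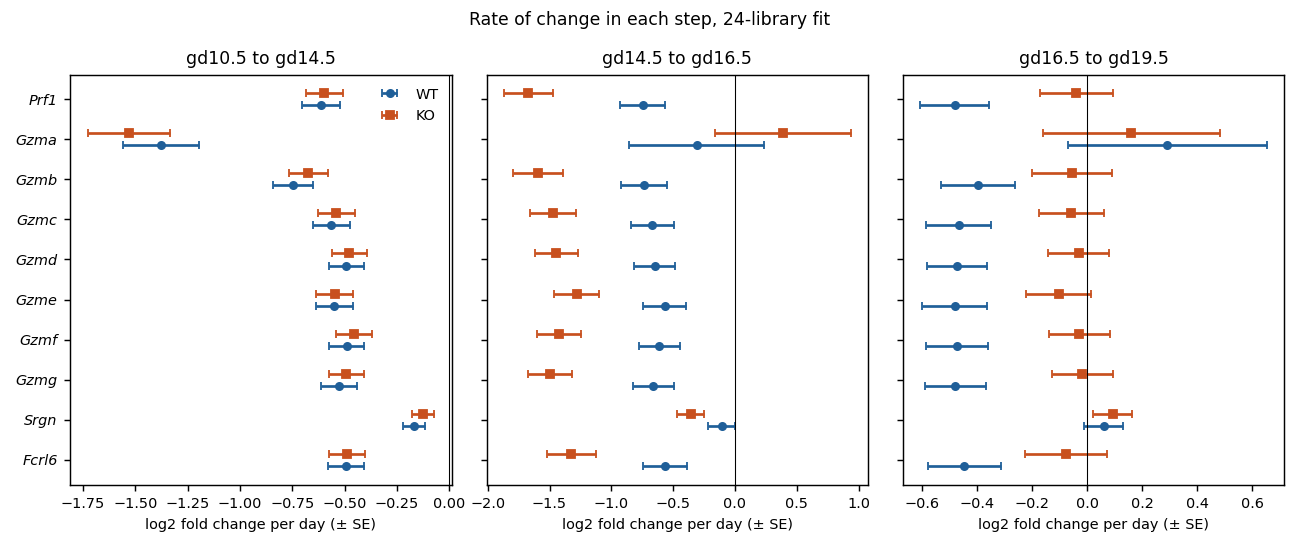
Log2 fold change per day of each gene in each step (x axis, scale differs between panels), from the 24-library fit; circles are WT, squares are KO and bars are ± 1 SE. WT and KO points overlap from gd10.5 to gd14.5, KO points of the 9 genes other than Gzma lie further left from gd14.5 to gd16.5 (Prf1 -1.67 against -0.75) and lie between -0.10 and 0.092 from gd16.5 to gd19.5.

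The difference between the genotypes in the size of a step was tested directly in the same fit. From gd10.5 to gd14.5 it was 0.07 for Prf1 on the log2 scale (SE 0.49), and no member had an unadjusted p under 0.05. From gd14.5 to gd16.5 the log2 fold change of Prf1 in KO minus that in WT was -1.85 (SE 0.52, unadjusted p = 0.00187), and 8 of 10 members had an unadjusted p under 0.05, but the adjusted p over all genes was 0.799 for each of them. From gd16.5 to gd19.5 the sign turned, with 1.33 for Prf1 (SE 0.54, adjusted p = 0.307), and 6 of 10 members had an unadjusted p under 0.05. None of the 10 members was called in any of the 3 differences, nor in the F test of the interaction, and the share of all genes called was 0%. In the F test, 8 members and 1396 genes had an unadjusted p under 0.05, and the adjusted p of the members ran from 0.598 to 0.954. Without the 2 KO libraries named above the calls changed. The difference from gd14.5 to gd16.5 was then -2.14 for Prf1 (SE 0.38, adjusted p = 0.0803) and -2.01 for Gzmb (SE 0.31, adjusted p = 0.0337), with 1 member and 2 genes called. In the F test, 2 members, Gzmb (adjusted p = 0.0205) and Prf1 (adjusted p = 0.0373), and 31 genes were then called. No member was called in the other 2 differences.

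At gd10.5 and gd14.5, KO and WT libraries overlapped for every member tested. In edgeR fits of 6 libraries per stage, 0 of 10 members were called lower in KO at gd10.5, against 0.00572% of genes, and 0 of 9 at gd14.5, against 0.00555%. Gzma did not pass the filter at gd14.5, gd16.5 and gd19.5. The difference of Prf1 was -0.07 on the log2 scale at gd10.5 (SE 0.35) and -0.01 at gd14.5 (SE 0.30), and no member at these stages had an unadjusted p under 0.05. Without KO gd10.5 replicate 2 and KO gd14.5 replicate 3, Prf1 was at 0.23 (SE 0.20) and 0.31 (SE 0.16), no member was called, and Gzmb at gd14.5, at 0.49, was the 1 member with an unadjusted p under 0.05.

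At gd16.5 all 3 KO libraries lay below all 3 WT libraries for 9 of 9 members tested, a pattern seen in 9.62% of genes. The authors reported Prf1, Gzmb to Gzmg and Fcrl6 as downregulated in KO at gd16.5 in these same libraries. The members were chosen with earlier results known, so this count and those of steps to or from gd16.5 are no independent test. The largest difference was that of Prf1, 28.8 ± 8.32 CPM in WT and 8.01 ± 2.34 CPM in KO (SD, n = 3), a log2 fold change of -1.84 (SE 0.27, unadjusted p = 0.000174). Gzmg followed at -1.71 (SE 0.19), and Gzmd, Gzmf, Fcrl6, Gzmc, Gzmb and Gzme lay between -1.65 and -1.49. Srgn was at -0.55 (SE 0.14). All 9 had an unadjusted p under 0.05, but the adjusted p ran from 0.122 to 0.378, so that 0 of 9 were called lower, against 0.00586% of genes. This count depended on the fit: 8 of 9 members were called by DESeq2 on all 24 libraries, 8 with no expression filter, and 4 without WT gd16.5 replicate 1, while 43, 50 and 5 genes in all were then called.

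Other features of the gd16.5 libraries also differed between the genotypes, some of them with overlap. The summed decidual stroma markers were at 3025 to 3385 CPM in KO and at 3712 to 4258 CPM in WT, and the summed trophoblast markers at 46280 to 51360 CPM in KO and at 28410 to 40020 CPM in WT, neither overlapping. The summed NK identity genes, at 103 to 126 CPM in KO and 132 to 157 CPM in WT, did not overlap either. Nor did the summed uterine smooth muscle genes, at 390 to 470 CPM in KO and 510 to 701 CPM in WT. That sum is weighted to its abundant genes. From gd10.5 to gd19.5 in WT its mean went from 1222 to 588 CPM, while the median log2 fold change of the 5 genes was 1.62. For KO against WT at gd16.5 that median was -0.51. The sums of the other lists overlapped. From gd14.5 to gd16.5, 4 of 8 decidual stroma markers were called lower in KO (Hand2, Pgr, Hoxa10 and Hoxa11, transcription factors of the decidua) and 0 of 8 in WT. None of the 8 stroma and 7 trophoblast markers tested was called between the genotypes at gd16.5, where 1 of 17071 genes was called lower and 0 higher. Hoxa11, Dcn, Pgr, Hand2 and Hoxa10 had an unadjusted edgeR p from 0.00264 to 0.0317, each lower in KO. Wnt4, Prl8a2 and Bmp2 had an unadjusted p of 0.0576 or more. Placed between the mean gd14.5 and gd16.5 profiles, the KO gd16.5 libraries lay at 123%, 122% and 72.4% and the WT libraries at 101%, 74.5% and 55.6%, so that the genotypes overlapped. Y-linked genes summed to 194, 188 and 1.14 CPM in KO and to 89.2, 0.663 and 0.487 CPM in WT. The part of these features in the granzyme and perforin difference was not tested.

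By gd19.5 the difference was smaller. Srgn and Gzmb were the 2 of 9 members with every KO library below every WT library, a pattern seen in 8.58% of genes. Gzmb was at 6.82 ± 0.79 CPM in WT and 4.82 ± 0.82 CPM in KO (SD, n = 3), a log2 fold change of -0.53 (SE 0.15, adjusted p = 0.202). For Prf1, at 10.6 ± 1.90 and 7.36 ± 2.28 CPM, the groups overlapped and the log2 fold change was -0.56 (SE 0.21, adjusted p = 0.309). The members lay between -0.56 and -0.36, and 0 of 9 were called lower, against 0.0230% of genes. An unadjusted p under 0.05 was found for 4 of them.

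Over the whole course, Gzmb and Prf1 lost the largest share of their level and Srgn the smallest. At gd19.5 the mean WT level was 2.00% of that at gd10.5 for Gzmb, 2.38% for Prf1, 2.59% for Gzma, 3.14% for Gzmc, 3.44% for Gzmg, 3.67% for Gzme, 3.87% for Gzmd, 4.13% for Gzmf, 4.59% for Fcrl6 and 61.3% for Srgn. In KO Gzmb (1.53%) and Prf1 (1.75%) were again lowest and Srgn (52.3%) highest, and the other 7 lay between 2.59% (Gzmc) and 3.74% (Gzmf). By gd16.5 Prf1 was already down to 6.48% in WT and to 1.90% in KO.

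Ratios within a library do not depend on library scaling, and they showed the composition of the effector transcripts shifting away from Prf1. Each ratio to Prf1, and that of Prf1 to the summed counts of 13 NK identity genes, was tested with an exact two-sided permutation of stage labels within genotype, adjusted over 40 tests. The smallest unadjusted p it can give is 0.005. Each change of a log2 ratio between stages given below is the mean of the WT change and the KO change. In all, 30 of the 40 had an adjusted p under 0.05, and 30 without the 2 KO libraries named above. From gd10.5 to gd19.5 the log2 ratio to Prf1 rose by 0.48 for Gzmc, 0.66 for Gzmg, 0.70 for Gzme, 0.80 for Gzmd, 0.91 for Gzmf and 0.98 for Fcrl6 (exact permutation adjusted p = 0.01 for each). The change was -0.16 for Gzmb (exact permutation adjusted p = 0.30) and 0.90 for Gzma (0.19), neither of which passed.

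Most ratios changed before gd16.5 and not after it. Gzmd counts were 3.37 to 3.97 times the Prf1 counts in the WT libraries of gd10.5, and at the later stages 5.11 to 5.28, 5.32 to 6.40 and 5.79 to 6.33 times. From gd16.5 to gd19.5 the ratios of Gzmb to Gzmg and of Fcrl6 to Prf1 changed by at most 0.11 on the log2 scale, in either direction, with exact permutation adjusted p from 0.30 to 0.99. Gzmb to Prf1 changed in the first step alone, by -0.38 (exact permutation adjusted p = 0.0231), from 0.708 to 0.901 in the WT libraries of gd10.5 to between 0.523 and 0.548 at gd14.5. Gzma to Prf1 changed by -2.98 in that step and then rose by 2.46 and 1.43, but rests on 12 counts or fewer per library from gd14.5 on.

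Averaged over the genotypes, perforin fell relative to serglycin in every step. WT libraries held 5.06 to 5.94 Srgn counts per Prf1 count at gd10.5, and 16.3 to 25.01, 42.3 to 54.6 and 111 to 186 at the later stages. Averaged over WT and KO, the log2 ratio rose by 1.86, 1.92 and 1.00 over the 3 steps (exact permutation adjusted p = 0.01, 0.01 and 0.0286). In the third step the KO libraries of both stages overlapped. The log2 ratio in KO minus that in WT went from 1.29 at gd16.5 to 0.097 at gd19.5. At gd16.5 the KO libraries held 78.7 to 156 Srgn counts per Prf1 count, all above the WT libraries of that stage.

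**Figure D3:**
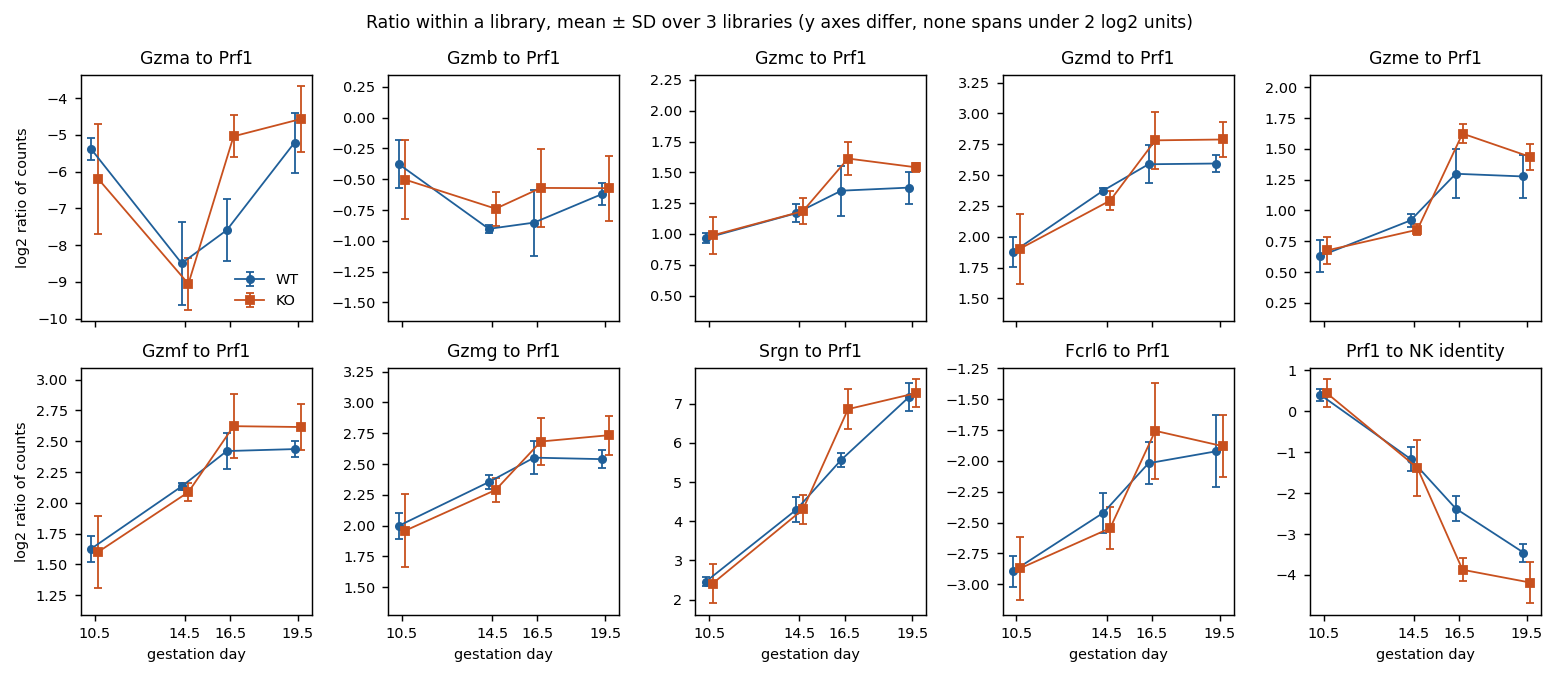
Log2 ratio of counts within a library against gestation day, for each member to Prf1 and for Prf1 to the NK identity genes; circles are WT, squares are KO, and bars are the SD of 3 libraries. Gzmc to Gzmg and Fcrl6 rise against Prf1 up to gd16.5 and then level off, Srgn keeps rising, and Prf1 falls against the NK identity genes by 4.24 in all, averaged over the genotypes.

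Prf1 also declined against the summed counts of genes that mark NK cells, a sum weighted to the abundant ones. Averaged over the genotypes, its log2 ratio to the summed NK identity counts changed by -1.70, -1.85 and -0.69 over the 3 steps and by -4.24 in all (exact permutation adjusted p = 0.01, 0.01, 0.0345 and 0.01). Itga1, an integrin that stromal and muscle cells carry too, made up 70.6% to 90.2% of that sum. Without it, an alternative chosen after seeing the data, the changes were -1.01, -1.68, -0.86 and -3.55 (exact permutation adjusted p from 0.01 to 0.0167). With Itga1 kept, the stages of the third step were not separated in both genotypes. The log2 ratio in KO minus that in WT went from -1.50 at gd16.5 to -0.73 at gd19.5, so KO changed less than WT in this step. Ncr1 and Klrb1c, NK markers of low level from the start, nearly vanished. Ncr1, the NK receptor NKp46, was at 3.36 CPM in WT at gd10.5 and at 0.0733 CPM at gd14.5, under the floor of detection. Klrb1c, which encodes NK1.1, was at 1.77 and 0.0408 CPM. Their falls in the first WT step were the steepest of the list. Cd244a changed by -1.21 on the log2 scale and Cd7 by -0.47 (edgeR adjusted p = 0.41). Gene by gene, the first step did not set Prf1 apart: its WT log2 fold change of -2.46 equalled the median of the 11 NK identity genes tested, and 6 of the 11 lay below it, among them Ncr1 (-5.47) and Klrb1c (-5.29), fitted values that depend on the prior count because both genes were under the floor at gd14.5. In KO, 5 of 11 lay below Prf1, and the median was -2.31 against -2.39 for Prf1. In the second step 4 of 11 lay below Prf1 in WT and 0 in KO, and in the third 0 in WT and 5 in KO.

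Between genotypes, none of the 10 ratios passed an exact permutation of genotype within stage (adjusted over 10 ratios; smallest p possible 1.25e-05). The closest was Prf1 to NK identity, lower in KO by 0.60 on average over the stages (exact permutation p = 0.0078, adjusted p = 0.078), with -1.50 at gd16.5 and -0.73 at gd19.5. With Itga1 left out of the sum, an alternative chosen after seeing the data, the mean difference was -0.46 (exact permutation p = 0.0122, adjusted p = 0.122). Without the 2 KO libraries named above, 0 of 10 passed as well. Gzmc to Prf1 was next, at 0.12 (exact permutation p = 0.0284, adjusted p = 0.142). The test used the mean difference over the stages, so that a difference confined to a single stage was diluted. Srgn to Prf1, for example, differed by 1.29 at gd16.5 and by 0.34 on average (exact permutation p = 0.0865, adjusted p = 0.216). Proportions among the abundant granzymes varied little between groups. Of the CPM per kilobase of exon summed over the granzymes, Gzmg took 25.0% to 27.5% in the group means, Gzmd 23.8% to 26.0% and Gzmf 20.7% to 23.95%. Gzmb went from 3.39% in WT at gd10.5 to 1.84% at gd19.5. In WT, Gzma took 0.151% of this sum at gd10.5. Its share was 0.0148% by gd14.5 and 0.112% in the last stage, both from 10 counts or fewer per library.

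Within groups, libraries that were high for 1 effector were high for the others. The coupling was measured on the deviations of log2 CPM from the mean of each group, with permutation within groups over 24 libraries and adjustment over 45 pairs. This removed differences between group means, but not differences in developmental position among the libraries of a group. The WT gd16.5 libraries, for example, lay at 101%, 74.5% and 55.6% of the way from the gd14.5 to the gd16.5 profile. The part of such differences in the coupling was not tested. The 21 pairs among Prf1 and Gzmb to Gzmg had Pearson r from 0.81 to 1.00, with a median of 0.96, and Gzmd with Gzmg had the highest r, 0.998. These 2 genes are also paralogs that may share reads. Prf1, which shares no sequence window with them, had r = 0.95 with Gzmd (Spearman rho = 0.92, permutation adjusted p = 3e-05 for both) and r = 0.90 with Gzmb (rho = 0.90). As background, the r of Prf1 with 19289 other tested genes had a median of -0.02 and a 95th percentile of 0.53, and 1 gene, 0.00518%, reached 0.9.

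Fcrl6 was coupled with these 7 at r from 0.81 to 0.96, Srgn with the 8 at r from 0.64 to 0.85, and Gzma with the other 9 at r from 0.38 to 0.60. In all, 38 of 45 pairs had a permutation adjusted p under 0.05, and the 7 that did not were Gzma with Prf1 and with Gzmb to Gzmg (permutation adjusted p from 0.0557 to 0.0968). KO gd10.5 replicate 2 and KO gd14.5 replicate 3 were the 2 libraries farthest from the median of Prf1. Without them, r ran from 0.73 to 1.00 among Prf1 and Gzmb to Gzmg, from 0.68 to 0.92 for Fcrl6, from 0.37 to 0.75 for Srgn and from 0.12 to 0.45 for Gzma.

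**Figure D4:**
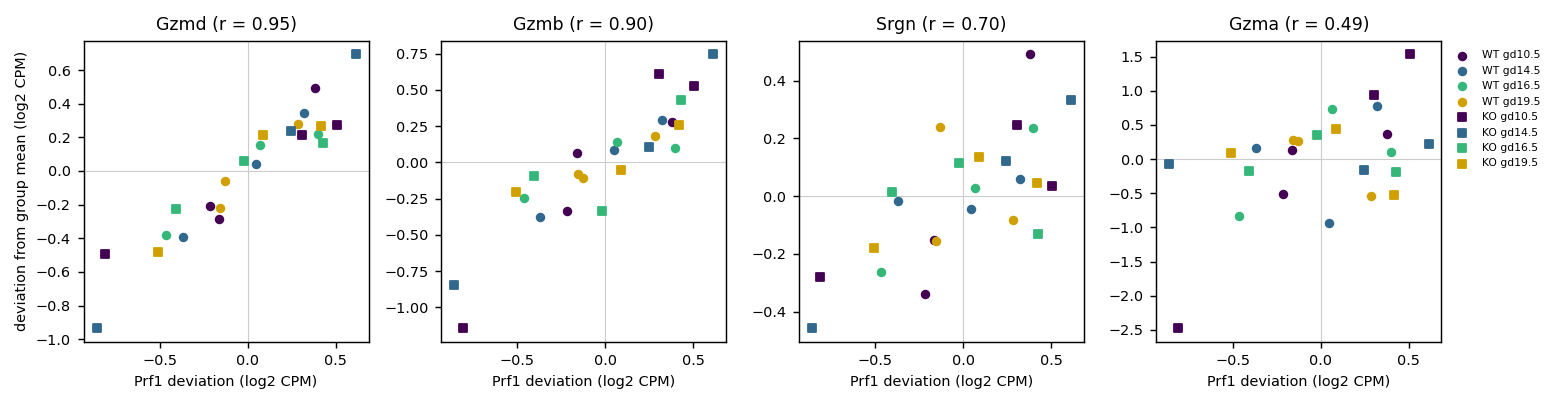
Deviation from the group mean (log2 CPM) of Gzmd, Gzmb, Srgn and Gzma against that of Prf1 in 24 libraries; circles are WT, squares are KO and colors are stages. The points follow a line for Gzmd (r = 0.95) and Gzmb (r = 0.90), spread for Srgn (r = 0.70) and scatter for Gzma (r = 0.49).

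Of 12 marker and pathway lists, the summed NK identity genes followed Prf1 most closely between libraries (r = 0.75, Spearman rho = 0.76, permutation p = 0.00097, adjusted p = 0.0116; r = 0.69 without the 2 libraries). Itga1 makes up most of that sum and had r = 0.63 by itself. Without Itga1, an alternative chosen after seeing the data, the list had r = 0.82 (rho = 0.81, permutation adjusted p = 0.00588; r = 0.74 without the 2 libraries). The neutrophil list was the other to pass (r = 0.65, rho = 0.65, permutation adjusted p = 0.0377; r = 0.53 without them), and its sum is led by S100a8. The remaining 10 lists had permutation adjusted p from 0.145 to 0.745. Trophoblast markers gave r = -0.45 and decidual stroma markers r = 0.27, neither of which passed. Over the 24 libraries, the genes whose log2 CPM ran most like the mean of Prf1 and Gzma to Gzmg, among 15100 genes with a mean of at least 1 CPM, were Sh2d1b2 (an adaptor of NK receptors, r = 0.996), Klrg1 (an inhibitory lectin-like receptor, 0.994), Ctsg (cathepsin G, 0.992), Klrb1b (0.991) and Cd96 (0.990). By deviations from group means they were Sh2d1b2 (0.943), Scin (0.935), Txk (0.918), Atp6v0d2 (0.895) and Klrg1 (0.888). Sh2d1b2 went from 68.3 CPM in WT at gd10.5 to 10.3, 3.57 and 1.45 CPM. These r values describe libraries that share stage.

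The machinery that processes and releases granules was split. Of 19 genes tested, 6 were called lower and 3 higher from gd10.5 to gd14.5 in WT, where 11.9% of all genes were called lower and 2036 of 19299 higher. In KO 5 were called lower and 1 higher, against 11.0% and 9.09% of all genes. The median log2 fold change of the list was 0.29 in WT and 0.021 in KO. Lower were genes of cytotoxic cells: Nkg7, a granule membrane protein (log2 fold change -3.73), Ctsw, a lymphocyte cathepsin (-4.28), Ctsc, the protease that activates granzymes (-1.71), and Gzmn, a further member of the granzyme cluster (-2.09), each with an edgeR adjusted p of at most 0.00235. The 2 most abundant genes of the list are used by most cells: Calr, a chaperone of the endoplasmic reticulum, was called higher (1.16) and Lamp1 was at 664 ± 33.5 CPM at gd10.5 and 815 ± 23.5 CPM at gd14.5 in WT (SD, n = 3). In the second step Gzmn alone was called lower in WT, and in KO Gzmn was called lower and Ctsh higher. The third step had 0 calls in WT and 1 in KO.

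Of 10 granzyme inhibitors tested, 2, 2 and 0 were called lower over the 3 WT steps, where the shares of all genes were 11.9%, 2.32% and 0.570%, and 1, 1 and 1 over the KO steps, against 11.0%, 3.25% and 1.45%. None was called higher. From gd14.5 to gd16.5 in WT, 6 of the 10 had an adjusted p under 0.05 at any fold, and the median log2 fold change of the list was -0.57. Serpinb9e, the most abundant serpin of the list, was at 626 ± 106, 998 ± 155, 365 ± 43.9 and 277 ± 49.8 CPM over the WT stages (SD, n = 3), and was called lower from gd14.5 to gd16.5 (log2 fold change -1.45 in WT and -1.19 in KO). Of 16 NK regulators, 8 were called lower and 1 higher in the first WT step, 2 and 0 in the second and none in the third. In KO the counts were 6, 2 and 0 lower and none higher. Eomes and Runx3, transcription factors of the NK lineage, were called lower in the first 2 steps in both genotypes. Over the WT stages Eomes was at 33.2 ± 4.02, 4.17 ± 1.01, 1.62 ± 0.50 and 1.13 ± 0.10 CPM. Il2rb, which encodes a chain of the interleukin-2 and interleukin-15 receptors, fell by 1.23 in the first WT step, and Id2 was at 98.2 ± 22.3, 73.9 ± 1.49, 89.4 ± 3.63 and 66.8 ± 6.11 CPM.

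Markers of cell types that hold these genes, or that share the tissue, were counted in the same fits. As background, 11.9%, 2.32% and 0.570% of all genes were called lower over the 3 WT steps and 11.0%, 3.25% and 1.45% over the KO steps, and 2036 of 19299 genes, 2.78% and 0.917% were called higher in WT and 9.09%, 5.36% and 0.736% in KO. The lists of 3 to 6 genes are too short for a single call to be read against these shares. Of 11 NK identity genes tested, 9, 2 and 0 were called lower in WT and 9, 3 and 0 in KO. Of 5 T cell genes, 4, 0 and 0 were called lower in WT, and in KO 3, 1 and 0, with 1 higher in the second step. Of 3 mast cell genes, 2, 0 and 1 were called lower in WT and 1, 1 and 0 in KO. Of 4 platelet genes, 1 was called lower, in the first KO step. Of 6 macrophage genes, 1 was called lower in the first WT step and 3 higher in the second KO step. Of 4 neutrophil genes, 2 were called lower in the first step in both genotypes, 1 higher in the third WT step and 2 higher in the second KO step. Of 8 decidual stroma genes, 7, 0 and 0 were called lower in WT and 6, 4 and 0 in KO, and of 7 trophoblast genes 5 were called higher and 2 lower in the first step in both, with 2 lower in the third WT step and 1 lower in the second KO step. Of 5 uterine smooth muscle genes, 2, 3 and 0 were called higher in WT and 1, 1 and 2 in KO, with 1 lower in the first WT step. Of 4 Y-linked genes none was called in any step. Stroma and trophoblast markers thus moved in the same step as the granule genes, and their part in that decline was not tested. No gene of these lists was called between the genotypes at gd16.5, where 1 of 17071 genes was called lower and 0 higher. Of the 13 NK identity genes 3 passed the filter at that stage, and Ncr1 and Klrb1c were not among them. The unadjusted edgeR p was 0.00123 for Cd244a, 0.00595 for Klrb1b and 0.0212 for Itga1, each lower in KO.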

How the data were processed

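MFI tissue was profiled by bulk RNA-seq in 24 libraries. Per the labels and the submitters' processing notes, the authors trimmed reads with Trim Galore 0.6.4, aligned them with STAR 2.7.3a to GRCm38 and counted them per gene with featureCounts of Subread 2.0.0. The deposited values are raw counts, not normalized.

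Groups were genotype and stage from the labels. Stage steps and the interaction were tested with edgeR 4.0.16 (R 4.3.3; quasi-likelihood, TMM) on all 24 libraries, and KO against WT on the 6 libraries of each stage. Genes were kept by group with a minimum count of 10 and a minimum total of 15. P-values were adjusted over all genes. A call needed an adjusted p below 0.05 together with a log2 fold change larger than 1 in size. SE is the log2 fold change divided by the root of F. CPM values use the TMM scale of the 24 libraries, and the floor covers counting error only. Log2 CPM for coupling used a prior count of 2, and ratios used counts plus 0.5. Permutations were run in Python 3.11.15 with NumPy 2.4.6, with 100000 resamples for coupling, and transcripts were aligned with edlib 1.3.9.post1. Every column of counts was used.

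The members and gene lists were chosen with earlier results of these data known. Named genes were the members, C1qtnf6, in each list the 2 most abundant genes and called genes, up to 4, and the 5 genes most like the mean of Prf1 and Gzma to Gzmg by each measure. Other markers named were chosen after their values were seen. Alternatives were DESeq2 1.42.0, other scaling, filters and fits, a replicate block, and leaving out each library.

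Tests were checked on simulated counts with 200 genes changed by 2 on the log2 scale. For WT gd14.5 to gd16.5, edgeR recovered 98.5% with 3 false calls among 18815 genes, and DESeq2 99% with 4 among 19299. For KO against WT at gd16.5, edgeR recovered 96% with 9 false calls among 17486 genes. In that comparison the members differed by -1.84 (Prf1) to -0.55 (Srgn) on the log2 scale, and recovery at these smaller sizes was not tested.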

Additional observations from a re-analysis of the deposited data

How the results depend on the processing

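Of the counts over the members recomputed under alternatives, 215 stayed within 1.5 times the main count and 14 did not. The number of members called for KO against WT at gd16.5 went from 0 to 8 with DESeq2 on all 24 libraries and to 8 with no expression filter, and ran from 0 to 4 when each library was left out. Leaving out 1 library moved the WT count from gd14.5 to gd16.5 to between 2 and 8, the WT count from gd16.5 to gd19.5 to between 0 and 6, and the number of ratios that differed between genotypes to between 0 and 2. For single members and the coupling of the NK identity list, 808 values kept direction and call, 44 lost the call, 28 gained it and 9 changed sign. The sign changes were all in the step from gd16.5 to gd19.5 in KO, where no member was called: with each library left out in turn, the log2 fold change ran from -0.33 to 0.13 for Prf1, from -0.30 to 0.076 for Gzmb, from -0.37 to 0.046 for Gzmc, from -0.22 to 0.11 for Gzmd, from -0.23 to 0.17 for Gzmf and from -0.18 to 0.15 for Gzmg. The cause was not tested.

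Replicate numbers did not pair the samples: the correlation of same-numbered WT and KO libraries ran from -0.455 to 0.406 over 12 pairs. With the replicate number as a block, 9, 7 and 6 members were called lower over the 3 WT steps, 9, 8 and 0 over the KO steps, and 0 in each comparison of genotypes. Without the 2 KO libraries that stood lowest, chosen after seeing the data, the median log2 fold change was -3.18 in KO from gd14.5 to gd16.5 and -0.12 from gd16.5 to gd19.5. In that fit 1 member was called for the difference between genotypes in the step from gd14.5 to gd16.5 and 2 for the interaction, against 0 with all libraries. Another scaling moved all genes by at most 0.016 on the log2 scale. Depth limits Gzma from gd14.5 on.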

Other observations

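On chromosome 14 the clustered granzyme genes fell together with tested genes that lie among or next to them, while most tested genes farther out were not called lower. This window was chosen after the values were seen. Within 500000 bases of the 6 clustered members lie 67 genes, of which 42 were tested. From Mcpt8 to Gzmb, 11 of 11 tested genes were called lower from gd10.5 to gd14.5, in WT and in KO, against 11.9% and 11.0% of all genes. This stretch begins and ends with genes called lower, and 6 of its tested genes are the members. Its count follows in part from where it was cut. The 5 that are no members were Mcpt8, a mast cell protease-like gene of basophils (log2 fold change -2.12 in WT and -2.19 in KO), Ctsg (-2.44 and -2.38), Gzmn (-2.09 and -1.93), and the gene models Gm4022 (-3.10 and -1.95) and Gm8961 (-1.98 and -2.12). Gm4022, at 1.17 CPM in WT at gd10.5, lies on the other strand and spans Gm8961 and parts of Gzmn and of Gzmf, which was at 1387 CPM, so that its reads may come from any of them. Gzmn, at 3.58 CPM in WT at gd10.5, shares 50-base windows with Gzmd, Gzme and Gzmg, so that its reads may come from these too. Of the 31 tested genes of the window outside this stretch, 1 was called lower in each genotype, Ltb4r1, a leukotriene receptor (-3.23 and -1.96). Cma1, a mast cell chymase farther along, was at 3.22 ± 0.71 CPM in WT at gd10.5 and at 6.09 ± 0.20 CPM at gd14.5 (SD, n = 3).

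KO gd10.5 replicate 2 was low in the same order as the genes fall. It was the lowest of 6 gd10.5 libraries for all 10 members, at 7.85% of the mean of the other 5 for Gzma, 33.9% for Gzmb, 47.0% for Prf1, 49.6% for Gzmc and 51.3% for Gzme, and 57.2% to 71.2% for Fcrl6, Gzmg, Gzmf, Gzmd and Srgn. Across the 10 members, its log2 shortfall against the other 2 KO libraries of gd10.5 followed the WT change from gd10.5 to gd14.5, which uses none of these libraries, with r = 0.97 and rho = 0.96 across genes, which are not independent. The same library lay 50.2% of the way to the gd14.5 profile over the other genes. KO gd14.5 replicate 3 was at 37.6% to 65.6% of the mean of the other 5 gd14.5 libraries for the 9 members other than Gzma, and lay 17.4% of the way to the gd16.5 profile, against -3.97% to 13.8% for the other 5.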
